A study of Mus musculus with 5 samples.

Results

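The 10 genes described here are the Id genes Id1, Id2, Id3 and Id4, the BMP ligands Bmp2, Bmp4 and Bmp7, the receptor Bmpr1a, the inhibitory SMAD Smad6 and the antagonist Grem1. They were taken by symbol from the 17923 genes listed in at least 1 library, and all 10 passed the filter on low counts that left 13240 genes for testing. RNA was sequenced from mouse thyroid tumor cell lines that all carry BRAFV600E. The BVE-Ctnnb1wt group (2 libraries) has intact Ctnnb1, the gene of β-catenin, and the BVE-Ctnnb1null group (3 libraries) is labelled with its deletion. Both BVE-Ctnnb1wt libraries come from 1 line name at passage 20, replicate 1 without thyroid-stimulating hormone (TSH) and replicate 2 with it. The BVE-Ctnnb1null libraries carry 3 line names, at passage 8 without TSH for replicate 1, at passage 11 for replicate 2 and at passage 7 for replicate 3, and TSH is not stated for replicates 2 and 3. The protocol text instead speaks of about 25 passages for the BVE-Ctnnb1wt and 20 for the BVE-Ctnnb1null lines, and of medium containing bovine TSH. Line, passage, TSH and genotype therefore cannot be told apart, and p-values measure the spread between these libraries. The age of the donor mice and the driver of the deletion are not given in the sources used here.

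Bone morphogenetic proteins (BMPs) are secreted ligands that bind pairs of type I and type II receptor kinases. The activated receptors phosphorylate SMAD1, SMAD5 and SMAD9, which enter the nucleus with SMAD4 and switch on target genes, among which the Id genes are the best known. Id proteins have a helix-loop-helix domain without a DNA-binding region. They pair with E proteins, keep them from DNA and so hold back differentiation. Extracellular antagonists such as gremlin 1 and noggin trap the ligands, and SMAD6 and SMAD7 damp the pathway inside the cell. Id genes also respond to TGF-β, MAPK and other signals.

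Promoter sequences of 7 of the 10 genes (Id2, Id3, Id4, Bmp4, Bmpr1a, Smad6 and Grem1) were taken from RefSeq (GRCm38.p6), each from 250 bases before to 50 bases after a transcription start. Shown are 3 Id genes and the receptor Bmpr1a. Capitals mark matches on either strand to GGCGCC, a palindrome known as a GC-rich SMAD site, to GTCTG, the SMAD box, and to CTTTGA and CTTTGT, cores of TCF/LEF sites. These motifs do not share bases in the windows printed.
Id2 promoter, chr12:25096043-25096342, minus strand: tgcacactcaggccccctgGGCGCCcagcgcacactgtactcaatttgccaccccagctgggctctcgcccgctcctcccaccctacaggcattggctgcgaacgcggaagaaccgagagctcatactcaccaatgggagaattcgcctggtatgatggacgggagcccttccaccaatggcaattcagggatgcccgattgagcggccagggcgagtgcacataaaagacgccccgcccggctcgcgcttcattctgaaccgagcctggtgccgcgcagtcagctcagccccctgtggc
Id3 promoter, chr4:136143572-136143871, plus strand: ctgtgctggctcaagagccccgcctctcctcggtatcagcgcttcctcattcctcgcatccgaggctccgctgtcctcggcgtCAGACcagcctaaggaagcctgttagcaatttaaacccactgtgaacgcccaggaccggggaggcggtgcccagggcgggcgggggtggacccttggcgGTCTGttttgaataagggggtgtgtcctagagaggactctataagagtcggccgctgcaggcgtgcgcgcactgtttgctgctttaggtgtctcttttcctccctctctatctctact
Id4 promoter, chr13:48260866-48261165, plus strand: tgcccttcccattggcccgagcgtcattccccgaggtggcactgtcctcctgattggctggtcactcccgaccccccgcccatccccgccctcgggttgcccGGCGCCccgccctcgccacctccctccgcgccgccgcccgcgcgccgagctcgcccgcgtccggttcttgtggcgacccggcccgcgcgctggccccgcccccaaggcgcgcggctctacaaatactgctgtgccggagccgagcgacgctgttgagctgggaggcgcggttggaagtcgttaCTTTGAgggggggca
Bmpr1a promoter, chr14:34502497-34502796, minus strand: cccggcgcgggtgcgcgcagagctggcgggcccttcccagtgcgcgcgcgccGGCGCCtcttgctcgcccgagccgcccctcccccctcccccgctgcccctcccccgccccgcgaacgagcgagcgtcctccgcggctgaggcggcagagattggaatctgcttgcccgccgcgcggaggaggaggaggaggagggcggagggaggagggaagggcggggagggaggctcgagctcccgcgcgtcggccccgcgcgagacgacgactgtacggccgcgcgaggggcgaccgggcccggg
The Id2, Id4 and Bmpr1a windows each held 1 GGCGCC, starting at -231, -148 and -198 relative to the start site. Of the 7 promoters, 4 held GGCGCC (the other is Grem1), against 11.9% of 32851 promoters of the same length. The 7 windows are rich in G and C, with 63.3% in Id2, 73.3% in Id4 and up to 79.3% in Bmpr1a, against a median of 52.7% over all promoters. Id3 held GTCTG at 2 places and Grem1 at 2, a motif found in 49.6% of all promoters. CTTTGA was found in Id4 alone (16.0% of all promoters) and CTTTGT in Grem1 alone (18.7%). The Bmp4 and Smad6 windows held none of these motifs. In FPKM, Id2, Id4, Bmpr1a and Smad6 were higher in every BVE-Ctnnb1null library, while Id3, Bmp4 and Grem1 had overlapping groups. A link between motifs and levels was not tested. A match is a description of the letters and not a binding site.

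Total estimated counts were 30432737 and 30713079 in BVE-Ctnnb1wt replicates 1 and 2 and 29929677, 29360002 and 29415980 in BVE-Ctnnb1null replicates 1, 2 and 3. Levels are given as FPKM, the deposited fragment count scaled for transcript length and library size. The FPKM of most genes was higher in the BVE-Ctnnb1null libraries. Over the 11796 genes tested in each way, the median log2 fold change was 0.61 on log2(FPKM + 0.1), 0.21 with edgeR after TMM scaling and 0.13 with DESeq2. Levels were therefore also compared after dividing by the TMM factor of each library.

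RNA of Ctnnb1 itself was not lower in the group labelled with its deletion. Its FPKM was 59.3 and 73.8 in the BVE-Ctnnb1wt libraries and 125, 196 and 118 in BVE-Ctnnb1null replicates 1, 2 and 3, and edgeR gave a log2 fold change of 0.55 ± 0.44 (SE, adjusted p = 0.517). In TMM-scaled counts the groups overlapped, with 356 CPM (counts scaled to library size) in BVE-Ctnnb1wt replicate 2 and 344 in BVE-Ctnnb1null replicate 3. The groups are called by their labels throughout. The 8 thyroid follicular markers were low against the label of thyroid epithelial cells. Their summed FPKM was 11.5 and 16.5 in the BVE-Ctnnb1wt and 34.0, 48.3 and 3.45 in the BVE-Ctnnb1null libraries. The transcription factor Nkx2-1, the most abundant by its mean over the libraries, had 9.21 and 15.0 against 9.26, 34.8 and 0.26. Pax8, the next by that mean and also a transcription factor of thyroid cells, had 0.40 and 0.17 against 18.1, 12.8 and 2.56. It was above both BVE-Ctnnb1wt libraries in every BVE-Ctnnb1null library (log2 fold change 4.75 ± 1.09 SE, adjusted p = 0.180 by edgeR and 7.72e-05 by DESeq2). Tg, thyroglobulin, was below both BVE-Ctnnb1wt libraries in every BVE-Ctnnb1null library, with 0.80 and 0.86 against 0.04, 0.51 and 0.34 (log2 fold change -2.13 ± 1.00 SE, edgeR adjusted p = 0.300). Pax8 and Tg were named after their values were seen. The 6 epithelial markers summed to 998 and 1622 in the BVE-Ctnnb1wt libraries and to 7141, 595 and 761 in the BVE-Ctnnb1null libraries. Krt8 was the most abundant in both BVE-Ctnnb1wt libraries and Krt18 in the 3 BVE-Ctnnb1null libraries. Epcam and Cdh1 were not listed in BVE-Ctnnb1null replicate 2 and were taken as 0 there. The 8 fibroblast and mesenchymal markers summed to 290 and 255 in the BVE-Ctnnb1wt libraries and to 1.57, 148 and 1312 in the BVE-Ctnnb1null libraries. Col1a1 was the most abundant of them, and 5, 5, 1, 5 and 7 of the 8 reached an FPKM of 1 in the libraries in that order. Col3a1 and Pdgfrb were not listed in BVE-Ctnnb1null replicate 1 and were taken as 0 there. The 6 endothelial markers summed to at most 0.73 in a library, the most abundant being Kdr. Of the 6 immune markers, Ptprc, Adgre1 and Cd3e were not listed in any library. The immune sum, nearly all Cd68, was 6.09 and 14.3 in the BVE-Ctnnb1wt and 59.9, 1.03 and 40.3 in the BVE-Ctnnb1null libraries. In these bulk libraries, fewer cells of a type and less RNA per cell cannot be told apart.

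Id2 was the member that differed most between the groups. Id2 had an FPKM of 0.97 and 1.21 in the BVE-Ctnnb1wt libraries and 53.1, 9.85 and 10.6 in BVE-Ctnnb1null replicates 1, 2 and 3. Every BVE-Ctnnb1null library was thus above both BVE-Ctnnb1wt libraries, and replicate 1 was the highest. The counts behind these levels were 38 and 48 against 2033, 370 and 398. EdgeR, whose quasi-likelihood p-values were adjusted by Benjamini-Hochberg over 13240 genes, put the log2 fold change at 3.96 ± 1.07 (SE, adjusted p = 0.191), which did not pass 0.05. Over the alternatives the adjusted p of Id2 ranged from 0.00197 with DESeq2, the one that called it, to 0.841. Without BVE-Ctnnb1null replicate 1 its log2 fold change was 2.54. On FPKM, a two-sided exact permutation test over the 10 ways to divide 5 libraries into 3 and 2 gave p = 0.3, and the smallest p it allows is 0.1.

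Id4, the least abundant Id gene, had the same order of groups at much lower levels. Its FPKM was 0.32 and 0.23 in the BVE-Ctnnb1wt libraries and 1.69, 1.07 and 1.06 in the BVE-Ctnnb1null libraries. The groups did not overlap, but the level rests on 16 and 12 counts against 84, 52 and 52. The log2 fold change was 1.66 ± 0.89 (SE, edgeR adjusted p = 0.352; exact permutation p = 0.1). Id1, a target that BMP signals switch on in many cell types, was split within the BVE-Ctnnb1null group. Its FPKM was 18.7 and 22.3 in the BVE-Ctnnb1wt libraries and 75.0, 58.0 and 21.65 in BVE-Ctnnb1null replicates 1, 2 and 3. In FPKM, replicates 1 and 2 were above both BVE-Ctnnb1wt libraries and replicate 3 lay between them. In TMM-scaled counts replicate 3 was below both, with 15.95 CPM against 19.99 and 27.34. Its log2 fold change was 0.76 ± 0.65 (SE, edgeR adjusted p = 0.545), and 0.28 without BVE-Ctnnb1null replicate 1. Id3 was the most abundant Id gene in 4 of the 5 libraries. Its FPKM was 25.3 and 65.0 in the BVE-Ctnnb1wt libraries and 42.9, 136 and 105 in the BVE-Ctnnb1null libraries. Here replicate 1, the library with the highest Id1, Id2 and Id4, was the lowest of its group and lay between the BVE-Ctnnb1wt libraries. In TMM-scaled counts replicate 3 lay between them too, with 81.93 CPM against 28.62 and 84.45. The log2 fold change of Id3 was 0.41 ± 0.66 (SE, edgeR adjusted p = 0.760), and -0.24 without BVE-Ctnnb1wt replicate 1.

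The makeup of the Id genes differed among the lines. Id3 made up 55.8% and 73.2% of the summed Id FPKM in the BVE-Ctnnb1wt libraries, and 24.8%, 66.4% and 75.9% in BVE-Ctnnb1null replicates 1, 2 and 3. Id2 made up 2.14% and 1.36% in the BVE-Ctnnb1wt libraries against 30.8%, 4.80% and 7.64%. The 4 genes together summed to 45.3 and 88.8 FPKM in the BVE-Ctnnb1wt and to 173, 205 and 138 in the BVE-Ctnnb1null libraries. After division by the TMM factor the sums were 53.8 and 121 against 159, 168 and 113, and the groups overlapped. A higher total of Id RNA in all 3 BVE-Ctnnb1null libraries thus held on FPKM and not after this scaling.

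**Figure D1:**
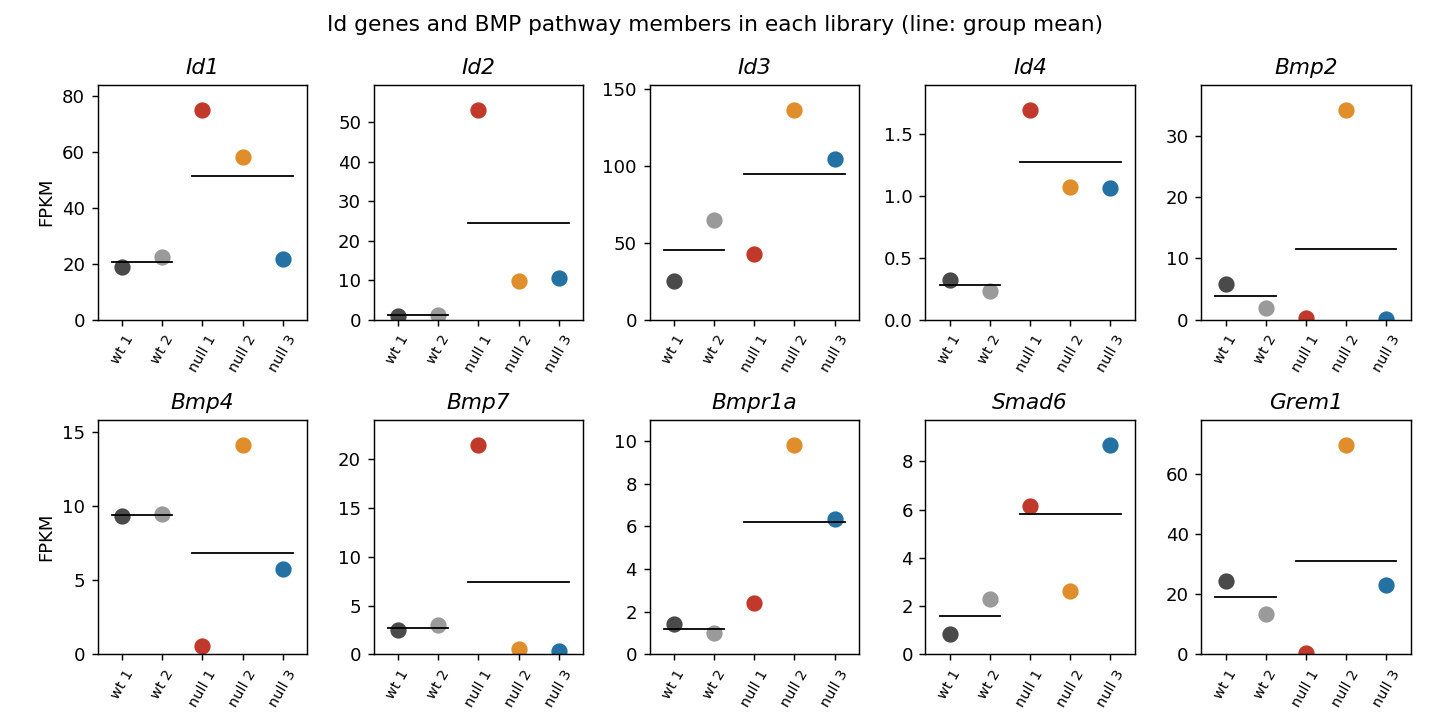
FPKM of the 10 genes (vertical axes, each panel from 0 to its own maximum) in the 2 BVE-Ctnnb1wt (wt) and 3 BVE-Ctnnb1null (null) libraries; points are libraries and black lines are group means. Id2 and Id4 are higher in all 3 null libraries, while Bmp2, Bmp7 and Grem1 each have 1 null library far from the other null libraries.

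The 3 BVE-Ctnnb1null lines differed in their main BMP ligand. Bmp7 was the main ligand of replicate 1, with an FPKM of 21.5 against 0.51 and 0.32 in replicates 2 and 3 and 2.46 and 3.01 in the BVE-Ctnnb1wt libraries. It made up 96.7% of the summed FPKM of the 3 ligands there. Bmp2 was the main ligand of replicate 2, with an FPKM of 34.2 against 0.20 and 0.04 in replicates 1 and 3 and 5.73 and 1.85 in the BVE-Ctnnb1wt libraries. In replicate 3 both were low, and Bmp4 made up 94.1% of the sum of these 3 ligands, while Bmp6, outside the sum, had an FPKM of 3.08 there. The FPKM of Bmp4 was 9.32 and 9.48 in the BVE-Ctnnb1wt libraries and 0.54, 14.1 and 5.75 in BVE-Ctnnb1null replicates 1, 2 and 3. The 3 ligands together summed to 17.5 and 14.3 FPKM in the BVE-Ctnnb1wt libraries and to 22.2, 48.8 and 6.11 in the BVE-Ctnnb1null libraries. The order of the summed ligands was thus not that of the summed Id genes, since replicate 3 had the lowest ligand sum of all libraries.

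Grem1, whose product gremlin 1 binds BMP2, BMP4 and BMP7, ranged over 162-fold. Its FPKM was 24.4 and 13.5 in the BVE-Ctnnb1wt libraries and 0.43, 69.5 and 23.1 in BVE-Ctnnb1null replicates 1, 2 and 3. In FPKM, replicate 2 was highest and replicate 1 lowest, as for Bmp4, and replicate 3 lay between the BVE-Ctnnb1wt libraries. In TMM-scaled counts replicate 2 was not the highest for Bmp4, with 23.16 CPM against 22.3 and 26.01 in the BVE-Ctnnb1wt libraries. Replicate 1, where Bmp4 and Grem1 were lowest, was also the library with the lowest sum of fibroblast and mesenchymal markers (1.57) and the highest sum of epithelial markers (7141); the part of these in the result was not tested. The ligands and Grem1 spread so widely within the BVE-Ctnnb1null group that their fold changes say little. The log2 fold change was 1.00 for Bmp2 (SE 2.21, edgeR adjusted p = 0.827), 0.95 for Bmp7 (SE 1.72, adjusted p = 0.787), -1.11 for Bmp4 (SE 1.07, adjusted p = 0.588) and 0.10 for Grem1 (SE 1.44, adjusted p = 0.977). Without BVE-Ctnnb1null replicate 2, Bmp2 had -5.51, Grem1 -1.37 and Bmp4 -2.28, and without replicate 1, Bmp7 had -3.41 and Bmp4 -0.59.

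**Figure D2:**
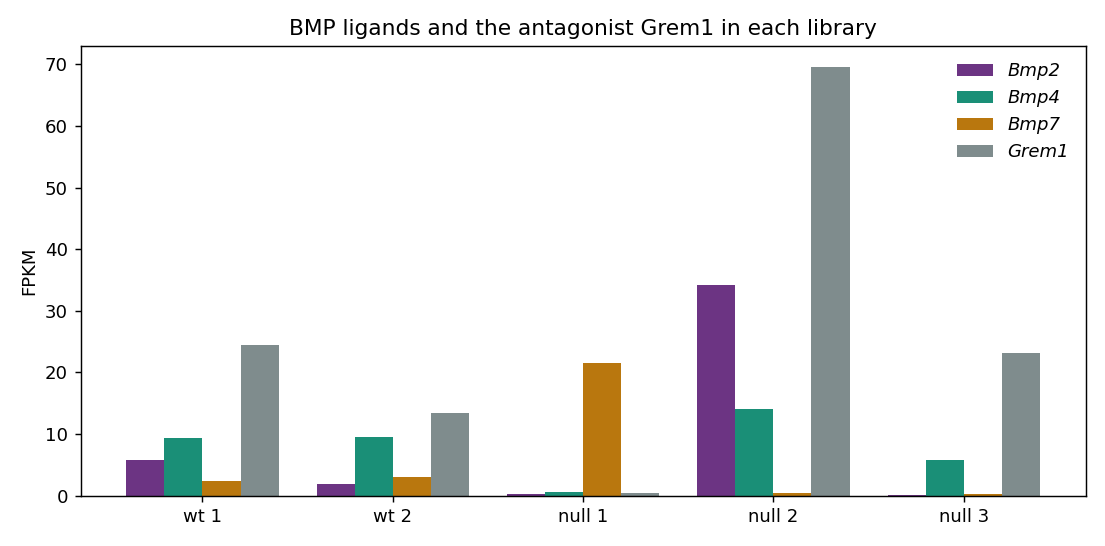
FPKM (vertical axis, from 0) of Bmp2, Bmp4, Bmp7 and the antagonist Grem1 in each library (horizontal axis; wt, BVE-Ctnnb1wt; null, BVE-Ctnnb1null); each bar is 1 library, without error. Bmp7 leads the ligands in null replicate 1, Bmp2 in null replicate 2 and Bmp4 in null replicate 3 and both wt libraries.

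Bmpr1a, a type I receptor for BMP2 and BMP4, was higher in every BVE-Ctnnb1null library. Its FPKM was 1.40 and 1.01 in the BVE-Ctnnb1wt libraries and 2.40, 9.82 and 6.32 in the BVE-Ctnnb1null libraries. Replicate 1 was the nearest to the BVE-Ctnnb1wt libraries and replicate 2 the farthest. EdgeR gave a log2 fold change of 1.75 ± 0.68 (SE, adjusted p = 0.248). Smad6, which is itself switched on by BMP signals and blocks SMAD1 and SMAD5, had an FPKM of 0.84 and 2.30 in the BVE-Ctnnb1wt libraries and 6.14, 2.61 and 8.69 in BVE-Ctnnb1null replicates 1, 2 and 3. The groups did not overlap in FPKM. After TMM scaling they did, with 9.44 CPM in BVE-Ctnnb1wt replicate 2 and 6.42 in BVE-Ctnnb1null replicate 2. The log2 fold change of Smad6 was 1.27 ± 0.80 (SE, edgeR adjusted p = 0.421), with 0.59 without BVE-Ctnnb1wt replicate 1 and 2.23 without BVE-Ctnnb1wt replicate 2.

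By edgeR at an adjusted p of 0.05, 0 of the 10 genes were called higher or lower, as were 0% of all genes tested. At an unadjusted p under 0.05, Id2 and Bmpr1a were higher and 0 were lower, where 12.4% of all genes were higher and 6.07% were lower. Without BVE-Ctnnb1wt replicate 1 the higher count was 0 of 10, against 2.71% of all genes, and without BVE-Ctnnb1wt replicate 2 it was 1 (Id2), against 2.20%. Without BVE-Ctnnb1null replicate 1, 2 or 3 it was 2, 1 and 1, against 16.1%, 12.8% and 11.3%. The lower count was 1 without BVE-Ctnnb1null replicate 1 (Bmp7), against 11.5%, and 1 without replicate 2 (Bmp2), against 7.27%. With a filter of at least 10 counts in every library, 3 of 9 were higher (Id2, Id4 and Bmpr1a), against 13.4%. With limma on log2 FPKM the higher count was 4 with 0.1 added (Id2, Id4, Bmpr1a and Smad6), 4 with 0.01 and 3 with 1, against 19.1%, 19.6% and 16.6% of the genes it tested. DESeq2 called 1 of the 10 higher (Id2) and 0 lower, against 8.48% and 3.71% of the genes it tested, and gave no adjusted p for Bmp2 and Bmp7. In FPKM, 4 of the 10 (Id2, Id4, Bmpr1a and Smad6) had every BVE-Ctnnb1null library above both BVE-Ctnnb1wt libraries and 0 had every one below, against 35.9% and 7.22% of all genes. In TMM-scaled counts this was 3 of the 10 (without Smad6) and 0, against 22.6% and 17.3%. The median log2 fold change of the 10 genes was 0.98, against 0.29 for all genes tested.

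**Figure D3:**
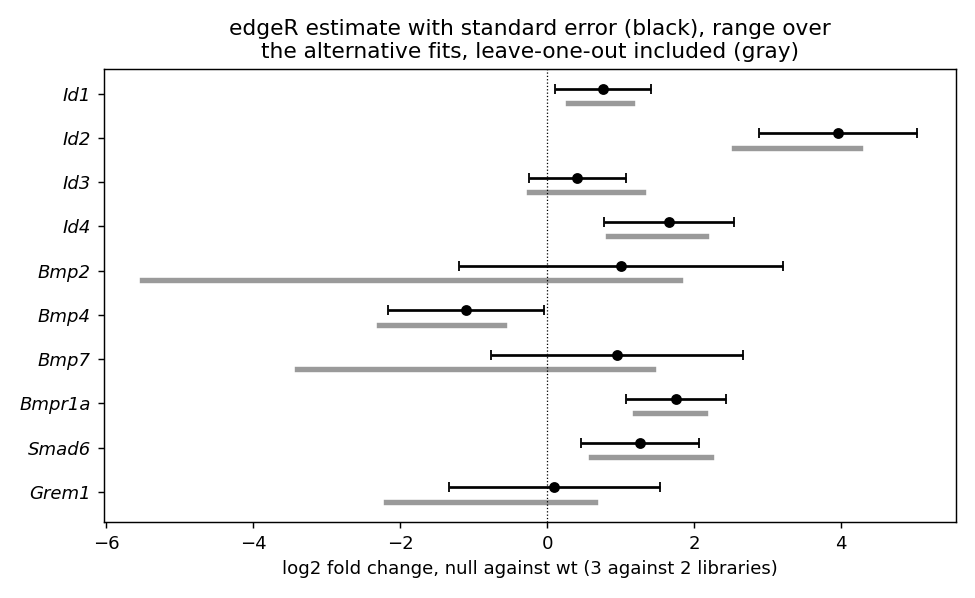
Log2 fold change of the 10 genes (horizontal axis), BVE-Ctnnb1null against BVE-Ctnnb1wt; black points and bars are the edgeR estimate and its standard error, and gray bars span the alternative fits. For Id2 the gray bar runs from 2.54 to 4.26, while those of Id3, Bmp2, Bmp7 and Grem1 cross 0.

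Line by line, each BVE-Ctnnb1null library was set against the mean of both BVE-Ctnnb1wt libraries on log2(FPKM + 0.1). The 3 comparisons share these BVE-Ctnnb1wt libraries, and with 1 library a line there is no test. In replicate 1, 5 of the 10 genes (Id1, Id2, Id4, Bmp7 and Smad6) were higher by a log2 difference of at least 1, against 36.2% of all genes, and 3 (Bmp2, Bmp4 and Grem1) were lower, against 12.0%. In replicate 2, 7 genes (the 4 Id genes, Bmp2, Bmpr1a and Grem1) were higher, against 39.5%, and Bmp7 was lower, against 10.1%. In replicate 3, 5 genes (Id2, Id3, Id4, Bmpr1a and Smad6) were higher, against 41.9%, and Bmp2 and Bmp7 were lower, against 8.81%. Id2 and Id4 were past this limit in all 3 lines. The log2 difference of Id2 was 5.49, 3.07 and 3.17 and that of Id4 was 2.27, 1.65 and 1.64 in replicates 1, 2 and 3. After division by the TMM factor the higher genes numbered 5, 6 and 4 of the 10 in replicates 1, 2 and 3, against 26.1%, 25.5% and 27.0% of all genes. The lower genes numbered 3, 1 and 3, against 19.4%, 20.2% and 18.7%, and Id2 and Id4 still passed the limit in each line.

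The other genes of the pathway were 56 ligands, receptors, co-receptors, SMADs and regulators, antagonists, targets and Id partners. Of these, 7 were not listed in any library and 40 were tested. At an adjusted p of 0.05 edgeR called 0 higher and 0 lower. At an unadjusted p under 0.05, 9 were higher (Bmpr2, Neo1, Smad1, Smad5, Chrdl1, Twsg1, Crim1, Msx1 and Msx2), against 12.4% of all genes. Only 1 was lower (Rgma), against 6.07%. Chrdl1 and Msx1 had 0 counts in both BVE-Ctnnb1wt libraries and Msx2 had 5 and 8. These genes passed the filter on low counts only through BVE-Ctnnb1null libraries. With at least 10 counts in every library, 6 were higher and 2 lower, against 13.4% and 6.61% of all genes. DESeq2 called 6 of the 40 higher (Bmpr2, Neo1, Chrdl1, Twsg1, Crim1 and Msx2) and 0 lower, against 8.48% and 3.71%. Chrdl1 and Msx2, which passed the filter only through BVE-Ctnnb1null libraries, are among these 6. The unadjusted higher count was 2 without BVE-Ctnnb1wt replicate 1, 2 without replicate 2, 13 without BVE-Ctnnb1null replicate 1 and 5 without BVE-Ctnnb1null replicate 3, against 2.71%, 2.20%, 16.1% and 11.3% of all genes. The lower count was 0 without either BVE-Ctnnb1wt library or BVE-Ctnnb1null replicate 2 and 2 without BVE-Ctnnb1null replicate 1 or 3, where 2.52%, 2.02%, 7.27%, 11.5% and 6.95% of all genes were lower in that order. Without BVE-Ctnnb1null replicate 2 the unadjusted higher count was 6, against 12.8% of all genes. The median log2 fold change of the 40 was 0.85. Chrdl1 lies outside the rule for named genes and was named after its values were seen.

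Among the co-receptors, Neo1 had the lowest p of the list. Neogenin is a receptor for repulsive guidance molecules (RGMs), which also bind BMPs. Neo1 had an FPKM of 0.46 and 0.23 in the BVE-Ctnnb1wt libraries and 7.63, 9.63 and 10.99 in the BVE-Ctnnb1null libraries, a log2 fold change of 4.21 ± 0.56 (SE, adjusted p = 0.180 by edgeR and 1.05e-12 by DESeq2). The 3 lines lay close together and far from both BVE-Ctnnb1wt libraries. Its ligand gene Rgma had the opposite order, with an FPKM of 10.1 and 8.56 against 5.31, 5.06 and 8.43 and a log2 fold change of -1.16 ± 0.46 (SE, edgeR adjusted p = 0.253). Rgmb had an FPKM of 2.30 and 3.05 against 4.14, 10.3 and 6.21, and its groups overlapped after TMM scaling. Among the receptors, Bmpr2, the type II receptor for BMPs, had an FPKM of 0.21 and 0.25 in the BVE-Ctnnb1wt libraries and 1.33, 2.69 and 1.33 in the BVE-Ctnnb1null libraries. Its log2 fold change was 2.36 ± 0.63 (SE, adjusted p = 0.191 by edgeR and 0.00566 by DESeq2). Acvr1, the type I receptor also called ALK2, was the most abundant receptor of the list, with an FPKM of 11.5 and 8.01 against 12.4, 22.4 and 16.3 and overlapping groups after TMM scaling. Acvrl1 was lower in replicates 2 and 3, with 2.42 and 4.08 against 3.30, 0.08 and 0.41. Acvr2b, another type II receptor, ranged from 0.83 to 2.06 over all libraries with overlapping groups.

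Smad1 and Smad5, which carry the BMP signal, had a higher level in every BVE-Ctnnb1null library, and for the third such gene, Smad9, the groups overlapped. Smad1 had an FPKM of 2.03 and 1.80 in the BVE-Ctnnb1wt and 7.41, 7.34 and 6.62 in the BVE-Ctnnb1null libraries (log2 fold change 1.32 ± 0.49 SE, edgeR adjusted p = 0.237). Smad5 had 2.08 and 1.07 against 3.69, 13.9 and 8.07 (log2 fold change 1.85 ± 0.66 SE, edgeR adjusted p = 0.230). For these genes the groups did not overlap in TMM-scaled counts either. Smad4, the partner of all receptor SMADs, had an FPKM of 15.4 and 17.2 against 24.6, 30.4 and 25.4, but its log2 fold change after TMM scaling was 0.12 ± 0.40 (SE) and the groups then overlapped. Of the ubiquitin ligases that mark SMADs for degradation, Smurf1 had an FPKM of 14.3 and 11.2 against 55.2, 24.9 and 19.2, and Smurf2 had 8.60 and 4.04 against 10.4, 21.0 and 16.3. Both overlapped between the groups after TMM scaling.

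Gdf6 and Bmp6 also differed widely among the lines. Gdf6, a BMP-family ligand, had an FPKM of 8.64 in BVE-Ctnnb1null replicate 2, the line with the most Bmp2, and at most 0.13 in the other 4 libraries. Bmp6 had 4.68 and 3.08 in replicates 1 and 3, 0.01 in replicate 2, and 0.16 and 0.08 in the BVE-Ctnnb1wt libraries. Bmp8a stayed under an FPKM of 1 in every library, with a highest value of 0.92 in replicate 1. Among the antagonists, Twsg1, which binds BMPs together with chordin, had an FPKM of 0.86 and 1.15 in the BVE-Ctnnb1wt libraries and 6.45, 13.2 and 25.6 in the BVE-Ctnnb1null libraries (log2 fold change 3.29 ± 0.73 SE, adjusted p = 0.180 from edgeR and 0.000397 from DESeq2). Crim1, a membrane protein that binds BMPs, had 1.53 and 1.47 against 2.92, 14.2 and 18.6 (log2 fold change 2.36 ± 0.80 SE, adjusted p = 0.219 from edgeR and 0.0413 from DESeq2). Fstl1 had the highest mean FPKM of the antagonists over the 5 libraries but, like Grem1, was lowest in replicate 1, where Nbl1 was far above it. The FPKM of Fstl1 was 37.2 and 46.4 in the BVE-Ctnnb1wt libraries and 0.47, 160 and 198 in the BVE-Ctnnb1null libraries. Fst, follistatin, had 4.41 and 3.45 against 7.83, 22.6 and 9.59, and Nbl1, a relative of gremlin, had 16.1 and 15.9 against 49.3, 18.2 and 85.0. Chrdl1 had 0 counts in both BVE-Ctnnb1wt libraries and 1, 289 and 54 in BVE-Ctnnb1null replicates 1, 2 and 3. In TMM-scaled counts, 4 of the 12 antagonists tested lay above both BVE-Ctnnb1wt libraries in every BVE-Ctnnb1null library, against 22.6% of all genes. Chrdl1 is among these on 1 count in replicate 1. Another 3 lay below (Nog, Dand5 and Bmper, named after their values were seen), against 17.3% of all genes. Nog, the gene of noggin, was also below in FPKM, with 1.09 and 0.92 against 0.47, 0.71 and 0.41 (log2 fold change -1.51 ± 0.79 SE, edgeR adjusted p = 0.344). The groups of Nbl1 overlapped in TMM-scaled counts.

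The homeobox genes Msx1 and Msx2, which BMPs switch on during development, differed among the lines. Msx1 had 0 counts in both BVE-Ctnnb1wt libraries and in BVE-Ctnnb1null replicate 1, and 670 and 389 counts in replicates 2 and 3. Msx2 had 5 and 8 counts in the BVE-Ctnnb1wt libraries, 691 and 365 in BVE-Ctnnb1null replicates 1 and 3 and 7 in replicate 2. Replicate 3 thus had both genes well above the BVE-Ctnnb1wt libraries, replicate 2 only Msx1 and replicate 1 only Msx2. Both genes passed the filter on low counts only through BVE-Ctnnb1null libraries, so a higher level in some of these lines was given by that filter. Atoh8, another target, had overlapping groups, with an FPKM of 4.25 and 9.01 against 3.51, 11.8 and 4.57. The E proteins that Id proteins bind had overlapping groups after TMM scaling. Tcf3 had an FPKM of 26.3 and 24.0 against 51.0, 52.5 and 36.6 (log2 fold change 0.32 ± 0.42 SE), Tcf12 had 5.17 and 3.65 against 4.70, 15.0 and 22.2, and Tcf4 had 3.11 and 1.72 against 0.70, 13.3 and 5.87.

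**Figure D4:**
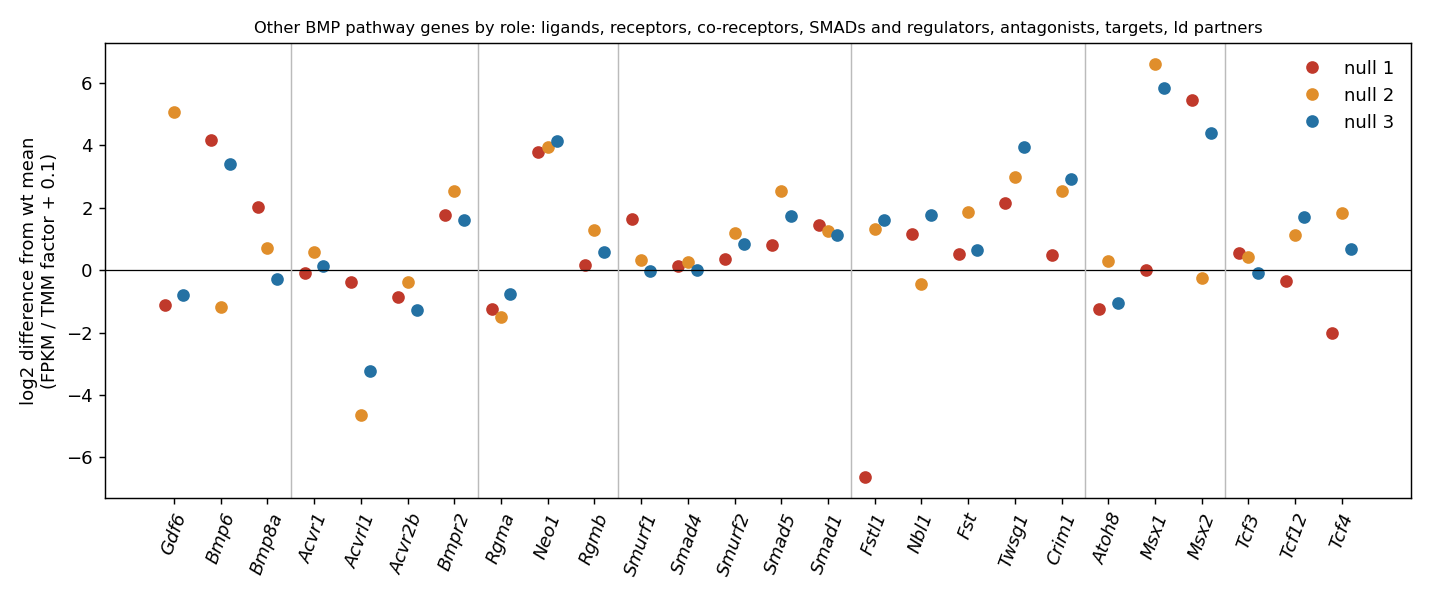
Log2 difference of each BVE-Ctnnb1null (null) library from the mean of both BVE-Ctnnb1wt libraries (vertical axis, after division of FPKM by the TMM factor and addition of 0.1) for named genes of the pathway, ordered by role and divided by gray lines. Neo1, Twsg1, Bmpr2 and Smad1 are above 1 in all 3 lines, while Gdf6, Bmp6, Fstl1, Msx1 and Msx2 are split among the lines.

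The BVE-Ctnnb1wt libraries differ in their label for TSH, the hormone that drives thyroid cells through cAMP. Tshr, the gene of its receptor, had 5 counts without and 3 with TSH and did not pass the filter on low counts. Whether these cells responded to TSH was not tested. With 1 library each, this comparison has no replicate check, and the intervals cover counting error only. Of the 10 genes, 2 were past a log2 ratio of 1 upward with TSH and 1 downward, against 8.51% and 9.61% of all genes tested. Id3 had 733 counts without and 1906 with TSH, a log2 ratio of 1.56 (95% exact interval 1.44 to 1.69) after TMM scaling. Smad6 had 77 and 213 counts, a log2 ratio of 1.65 (1.27 to 2.05). Bmp2 had 633 and 206 counts, a log2 ratio of -1.44 (-1.67 to -1.21). Id3 and Smad6 were thus higher and Bmp2 lower in the library with TSH, and the other 7 genes stayed within the limit. Grem1 had a log2 ratio of -0.66 (-0.80 to -0.53), Id1 of 0.45 (0.28 to 0.62), Bmp7 of 0.49 (0.26 to 0.73) and Bmp4 of 0.22 (0.05 to 0.39). For Id2, Id4 and Bmpr1a the interval included 0.

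**Figure D5:**
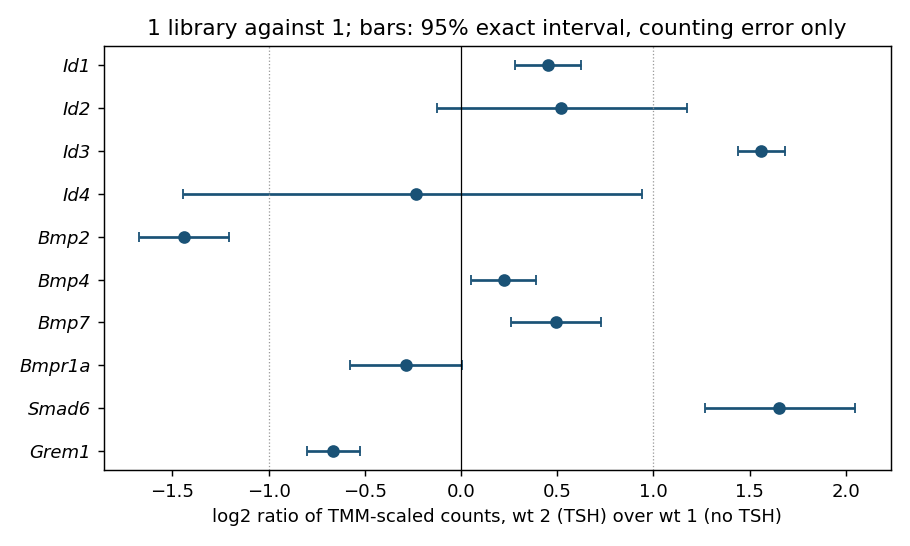
Log2 ratio of TMM-scaled counts (horizontal axis) of the BVE-Ctnnb1wt library with TSH over that without for the 10 genes; points are ratios of 1 library to 1, bars are 95% exact intervals for counting error, and dotted lines mark a log2 ratio of 1 in each direction. Id3 and Smad6 lie above 1 and Bmp2 lies below -1.

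The libraries labelled without TSH in both groups allow a comparison without that difference, again with 1 library each. Between BVE-Ctnnb1null replicate 1 and BVE-Ctnnb1wt replicate 1, the log2 ratio after TMM scaling was 5.40 for Id2, 1.63 for Id1, 2.05 for Id4, 0.39 for Id3, 2.50 for Smad6 and 0.40 for Bmpr1a. Of the ligands, Bmp7 had 2.75 while Bmp2 had -5.19 and Bmp4 -4.50, and Grem1 had -6.21.

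Genes with profiles like those of Id1 and Bmp4 were sought among 7307 other genes with a mean FPKM of at least 5, by the Euclidean distance of their centred log2(FPKM + 0.1) over the 5 libraries. The nearest to Id1 were Tmem37 (distance 0.21), Exoc4 (0.26) and Cd24a (0.30), against a median distance of 2.15. Cd24a, a surface glycoprotein, had an FPKM of 35.6 and 34.8 in the BVE-Ctnnb1wt libraries and 153, 112 and 40.6 in BVE-Ctnnb1null replicates 1, 2 and 3. As for Id1, replicates 1 and 2 were well above the other libraries, but replicate 3 was above both BVE-Ctnnb1wt libraries. The nearest to Bmp4 were Ak5 (0.60), 3110039M20Rik (0.70) and Twist2 (0.78), against a median of 3.96. Twist2, a transcription factor of mesenchymal cells, had an FPKM of 30.6 and 27.6 against 1.59, 27.4 and 23.4, and was lowest in replicate 1, as Bmp4 was. These distances rest on 5 libraries that also differ in line and culture.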

How the data were processed

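RNA of 2 BVE-Ctnnb1wt and 3 BVE-Ctnnb1null libraries was sequenced (TruSeq libraries, HiSeq). The aligner, counting program and build are not given in the sources used here. The authors deposited an estimated count and an FPKM per RefSeq transcript, listed from an FPKM of 0.01. Values were summed per NCBI gene number and the expected counts were rounded. Symbols came from RefSeq (GRCm38.p6), matching 17866 of 17923 genes. The groups were compared with edgeR 4.0.16 (R 4.3.3, TMM, filterByExpr, glmQLFit and glmQLFTest, Benjamini-Hochberg, 13240 genes); a standard error is the log2 fold change divided by the root of F. Alternatives were DESeq2 1.42.0, other filters, limma 3.58.1 on log2 FPKM, leaving out each library, a replicate block and the libraries without TSH. The fits were tested on simulated data, and no result here rests on that test. At this depth 3 counts, the limit a count of 0 allows, were about 0.10 CPM, for counting error only. Members and lists were chosen with earlier results of these data known. Named were all members and, per role, up to 3 genes by mean FPKM and 2 by p. Python 3.11.15, scipy 1.17.1 and matplotlib 3.10.9 were used.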

Additional observations from a re-analysis of the deposited data

How the results depend on the processing

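DESeq2 moved the counts most, calling 1 member (Id2) and 6 other pathway genes higher, where edgeR called 0 of each. Of these pathway genes, Chrdl1 and Msx2 passed the filter on low counts only through BVE-Ctnnb1null libraries. In all, DESeq2 called 1113 genes higher and 487 lower, where edgeR called 0 of each. Over all genes, limma called 1 higher (Aqp1) and 5, 3 and 7 lower with 0.1, 0.01 and 1 added, edgeR without a filter called 4 lower, and with at least 10 counts in every library 1 lower (Crabp1), none of them a member. The last filter leaves out Bmp2. Leaving out each library gave 0 calls of members, pathway genes or all genes in either direction, with log2 fold changes from -0.24 to 1.31 for Id3, -5.51 to 1.80 for Bmp2, -3.41 to 1.43 for Bmp7 and -1.37 to 0.65 for Grem1. With 1 library left in the BVE-Ctnnb1wt group, it is assumed to vary like the others. Limma with 0.1, 0.01 and 1 added gave -1.58, -2.20 and -0.31 for Bmp2, -0.67, -0.82 and -0.069 for Bmp7 and -0.94, -1.03 and -0.51 for Grem1. In the libraries without TSH, Bmp2 had -5.19 and Grem1 -6.21. The cause of these reversals was not tested, beyond the wide spread among the BVE-Ctnnb1null libraries. The replicate numbers mark no shared source, and same-numbered libraries did not deviate together (correlations across genes of -0.11 and -0.11). Both BVE-Ctnnb1wt libraries deviate from their mean by equal and opposite amounts, so these values are not independent. BVE-Ctnnb1null replicate 3 has no same-numbered partner. With the replicate number as a block, Bmp2 had -0.78, Bmp7 -0.26 and Grem1 -2.20, Id2 had 3.83 (edgeR adjusted p = 0.330), and 0 members were called. Id1, Id2, Id4, Bmpr1a and Smad6 stayed above 0 and Bmp4 below 0 in every alternative run. The lowest BVE-Ctnnb1null library exceeded the highest BVE-Ctnnb1wt library by 49.4 in summed Id FPKM, and by -7.48 after division by the TMM factor, a scaling added after seeing the data. Levels of Id4, with 12 to 84 counts, are limited by depth.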
